A study of Mus musculus with 10 samples.

Results

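The 9 genes described here are the 4 JAK kinases Jak1, Jak2, Jak3 and Tyk2 and the 5 STAT factors Stat3, Stat4, Stat5a, Stat5b and Stat6, found by gene symbol in a table of 54838 genes. They were measured by total RNA sequencing of group 2 innate lymphoid cells (ILC2), lymphocytes without antigen receptors that make type 2 cytokines. Papain, a protease that acts as an allergen, had inflamed the lungs of the C57BL/6 mice from which these cells were sorted, by the gate lin-CD90.2+ST2+/-KLRG1+/-. There were 5 wild-type (WT) libraries and 5 libraries of mice labelled KO for the transcription factor c-Maf, all cohoused littermates. The sources used here do not state the allele, the part of Maf that was deleted, the driver of any Cre, or the age and sex of the mice. Libraries are numbered by deposit order, which pairs none of them, and since no label says in words that each is a separate mouse, p-values cover only the spread among these libraries, which may be technical. The labels' own numbers are higher for every KO than for every WT library, so genotype and this order cannot be told apart.

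JAK kinases sit on the inner tails of cytokine receptors and are switched on when a cytokine pulls the receptor chains together. They put phosphate on the receptor and on STAT factors, which then pair, enter the nucleus and bind DNA. In ILC2 this route carries the signals of IL-7, IL-2, IL-9 and TSLP, mainly through STAT5, and of IL-4 and IL-13 through STAT6.

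The WT libraries held 21400938 to 24489987 counts and the KO libraries 3620002 to 9867580, and TMM scaling factors, which adjust for the makeup of each library, ranged from 1.46 to 1.91 for WT and from 0.180 to 0.928 for KO. At least 1 count was found for 10577 to 12744 genes per WT library and 4052 to 7660 per KO library. KO library 1 stood apart, with 93.4% of its counts in 100 genes. The 12 ILC2 markers summed to 7624 to 11361 CPM (read counts relative to the total of the library) in WT and 750 to 16369 in KO, with 9 to 12 markers above 3 counts in each KO library. TMM-scaled, as member levels are, they summed to 4069 to 6219 and 4200.0 to 22300 CPM. The 7 erythroid markers summed to 9.10 to 25.0 CPM in WT and 107 to 190311 in KO, the highest in KO library 1, so red cell transcripts moved with genotype; Alas2 among them was at 0. The 6 T cell markers summed to 17.7 to 130 CPM in WT and 0.661 to 23.5 in KO, with Cd8a at 0, the 4 B cell markers to 0 to 6.73 and 0 to 186 with Ms4a1 at 0, the 7 myeloid markers to 2.86 to 522 and 0 to 6.31 with Itgam at 0, the 5 epithelial and endothelial markers to 47.5 to 166 and 0 to 13.7 with Sftpc and Cdh5 at 0, and the 4 NK and ILC1 markers to 0 to 5.92 and 0, with Ncr1, Eomes and Klrb1c at 0. The part of these cells in the results below was not tested, and depth was varied only by thinning all libraries to the smallest total. In that setting the log2 fold change was −6.69 for Stat5a (edgeR adjusted p = 0.00104) and 1.99 for Jak1 (adjusted p = 0.181). In bulk RNA, fewer cells of a type and less RNA per cell cannot be told apart. Maf itself had 1412 to 3832 counts in the WT libraries and 0, 0, 0, 108 and 0 in KO libraries 1 to 5. The Maf log2 fold change was −4.34 (SE 2.06, edgeR adjusted p = 0.141), which did not pass. Without KO library 4 it was −13.61 (edgeR adjusted p = 0.00525), fitted against libraries at 0. KO library 4 held all KO counts of Maf, so that fall was nearly fixed in advance. With all libraries Maf passed with DESeq2 (adjusted p = 0.0474), voom (adjusted p = 0.00730) and an exact permutation test (adjusted p = 0.0268). In no edgeR setting with all libraries did it pass, the lowest adjusted p being 0.0692 by library size alone. KO library 4 held Maf at 15.4 CPM, below the WT range of 37.5 to 93.2. KO in what follows means the genotype in the labels.

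Stat5a and Stat5b are near-copies that lie 8626 bases apart, and the stretch printed here shows why a short read may not tell them apart. It covers coding bases 541 to 840 of both genes, from the GENCODE transcripts of GRCm38, with the base that differs in capitals.
Stat5a: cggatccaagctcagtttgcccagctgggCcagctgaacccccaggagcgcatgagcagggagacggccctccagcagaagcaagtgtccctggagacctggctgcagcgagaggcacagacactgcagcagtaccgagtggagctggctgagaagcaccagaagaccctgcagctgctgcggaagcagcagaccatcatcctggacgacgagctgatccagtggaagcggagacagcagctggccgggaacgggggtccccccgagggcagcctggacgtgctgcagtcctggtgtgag
Stat5b: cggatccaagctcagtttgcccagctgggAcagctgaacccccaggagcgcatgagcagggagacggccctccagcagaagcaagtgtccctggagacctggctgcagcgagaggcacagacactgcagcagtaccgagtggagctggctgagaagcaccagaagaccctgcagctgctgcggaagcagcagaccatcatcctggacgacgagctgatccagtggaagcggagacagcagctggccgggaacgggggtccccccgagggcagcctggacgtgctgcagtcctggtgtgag
These 300 bases differed at 1 place, and the bases after it belong to the longest run that the coding sequences share, 324 bases. Of the 2342 words of 50 bases in the Stat5a coding sequence, 26.0% also occur in Stat5b, and of words of 100 bases 11.6% do. No other pair among the 36 pairs of members shared a word of 50 bases. The sources used here do not state the read length or what was done with reads that fit both genes, so the split of counts within the pair is uncertain.

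How well a member could be counted also depends on its neighbours in the genome. Among protein-coding genes, 494 sit within the span of an opposite-strand gene without touching its exons, and 98.8% of these were at 0 in every library, against 35.1% of 14131 genes that overlap no other gene. Tyk2 (GRCm38 chromosome 9, 21104068 to 21131243, minus strand), the kinase of the type I interferon, IL-10 and IL-12 receptors, has 94.3% of its exon bases inside the span of the antisense gene 1700084C06Rik. It had 7, 48, 0, 115 and 15 counts across WT 1 to 5 and 0 in every KO library, too few for the test, and they do not measure its level. Stat4 (chromosome 1, 51987148 to 52107189, plus strand) has 50.03% of its exon bases inside the spans of Gm28177 and Gm3940, so its counts are uncertain. Jak3 shares 7.55% of its exon bases with Insl3, and each of the other 6 members at most 1.01% with any neighbour.

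In WT ILC2, Jak1 and Jak2 stood highest per length of exon, at 47.8 ± 7.31 and 42.8 ± 14.2 CPM per kilobase (TMM-scaled, SD, n = 5). They were followed by Stat4 at 20.6 ± 4.82, Stat3 at 19.3 ± 9.48 and Stat6 at 12.6 ± 3.62 CPM per kilobase. Stat5b and Jak3 stood at 6.91 ± 3.32 and 6.79 ± 3.63, Stat5a at 1.5 ± 0.878 and Tyk2 at 0.121 ± 0.151 CPM per kilobase. Neighbours in this order overlapped between libraries in every case but Stat5a over Tyk2. Jak1 was above Jak2 in 3 of 5 WT libraries, Stat3 above Stat6 in 3 and Stat5b above Jak3 in 3, so those steps were within the spread. Per kilobase of the longest transcript, Stat3 at 30.4 ± 14.9 stood above Stat4 at 26.8 ± 6.25, and Jak3 at 8.98 ± 4.798 above Stat5b at 7.34 ± 3.53. Over the exon bases outside other genes, Stat4 stood at 41.2 ± 9.64 CPM per kilobase. On that length Tyk2 stood at 2.13 ± 2.67, above Stat5a at 1.52 ± 0.887, so the order of these genes turned. Over whole gene spans outside other genes, which applies if intron reads were counted, the order changed. Jak2, Stat3, Stat6 and Jak1 then stood at 3.52 ± 1.16, 3.38 ± 1.66, 3.09 ± 0.890 and 3.07 ± 0.469 CPM per kilobase. The sources used here do not state whether intron reads were counted, so Jak1 leads per length of exon only.

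**Figure D1:**
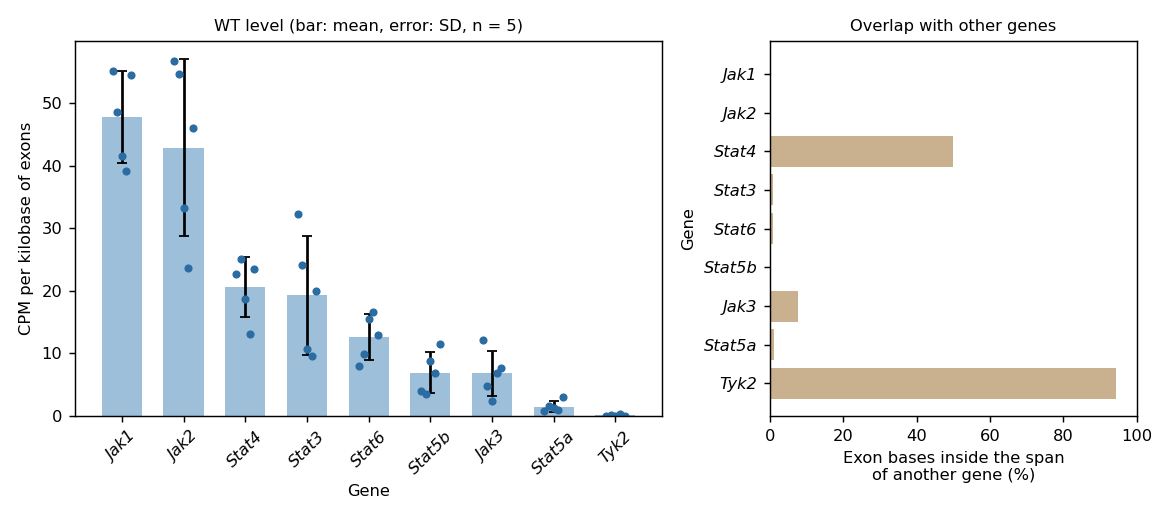
Left, WT level of each member in TMM-scaled CPM per kilobase of exons (points are the 5 WT libraries, bars the mean, error bars the SD); right, the percentage of exon bases inside the span of another gene. Jak1 and Jak2 lead at 47.8 and 42.8 per kilobase of exons, an order that changes over whole gene spans. Tyk2 (94.3%) and Stat4 (50.03%) have the largest overlaps.

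The comparison of KO with WT asks how the JAK and STAT transcripts differ in ILC2 labelled KO for c-Maf. Of the 9 members 8 had counts enough for edgeR's quasi-likelihood test; 1 of them, Stat5a, fell, 0 rose and 7 did not pass at an adjusted p of 0.05 over 7490 genes. Over all tested genes 27.1% were called lower and 1.5% higher, so 1 lower of 8 is no more than the share of all genes. The median log2 fold change of the 8 was 0.69, beside −0.47 over all tested genes. By library size alone the 2 medians were −0.98 and −1.77, and with RLE size factors 1.27 and 0.09. At an unadjusted p under 0.05 Jak1 was the only other member.

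Stat5a (chromosome 11, 100859351 to 100885169, plus strand), which carries IL-2, IL-7 and TSLP signals, was nearly absent from the KO libraries. Its counts were 201, 502, 284, 304 and 935 across WT 1 to 5 and 0, 0, 2, 0 and 0 across KO 1 to 5. Every KO library lay below every WT library. Mean CPM was 10.7 ± 6.27 for WT and 0.0548 ± 0.122 for KO (± is the SD of 5 libraries here and below). The ratio of summed counts per scaled library size was 133, with an exact 95% interval of 36.7 to 1097 that covers counting error only. The edgeR log2 fold change was −7.06 (SE 1.45, adjusted p = 0.00163), and Stat5a was called lower in all 19 other settings run, with an adjusted p of at most 0.0120. A two-sided exact permutation test on log2(CPM + 1) returned 0.00794, which is the smallest p for 5 against 5, or 0.0268 after adjustment over all tested genes. By that test 32.2% of all tested genes were lower and 0.975% higher, and 28.9% had every KO library below every WT library. At most 3 counts in all 5 KO libraries, as for Stat5a, was found for 22.3% of tested genes. Stat5a is the weakest of the 8 tested members in WT.

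Stat5b (chromosome 11, 100780731 to 100850724, minus strand), the near-copy of Stat5a, did not follow it in every library. Its counts were 762, 877, 1617, 1723 and 2782 across WT 1 to 5 and 14, 1043, 0, 1 and 8 across KO 1 to 5. KO library 2 lay above every WT library once scaled and the other 4 KO libraries lay below every WT library. Mean levels were 38.3 ± 18.4 CPM for WT and 35.3 ± 68.1 CPM for KO; edgeR put the log2 fold change at −0.11 (SE 1.75, adjusted p = 0.975). Without KO library 2, which held 97.8% of the KO counts, the log2 fold change was −2.46 (edgeR adjusted p = 0.268). With voom and all libraries it was −3.84 (adjusted p = 0.0555), and the difference of mean log2(CPM + 1) was −2.40 (exact permutation adjusted p = 0.235).

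The share of Stat5a within the pair needs no scaling between libraries. It was 20.9, 36.4, 14.9, 15 and 25.2% for WT 1 to 5. In KO library 2 it was 0 of 1043 counts, which allows a share of up to 0.288%, below every WT library. The other KO libraries held 1 to 14 counts of the pair, too few to give a share.

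Stat6 (chromosome 10, 127642986 to 127660957, plus strand) carries the signals of IL-4 and IL-13. Its counts were 1227, 1960, 2260, 3306 and 2510 across WT 1 to 5 and 13, 0, 374, 1 and 1 across KO 1 to 5. Scaled, 4 KO libraries lay below every WT library and KO library 3 lay within the WT range. Mean levels were 55.4 ± 15.95 and 13.4 ± 22.1 CPM; edgeR put the log2 fold change at −2.04 (SE 1.76, adjusted p = 0.454). With voom and quality weights it passed at −5.08 (adjusted p = 0.0169), a setting that moved the median tested gene by −2.01. The exact permutation test gave p = 0.0238 (adjusted p = 0.0665), and with CPM by library size 0.00794 (adjusted p = 0.0212), where 5 of 5 KO libraries lay below every WT library, as for 37.1% of tested genes.

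Stat3 (chromosome 11, 100885098 to 100939540, minus strand), the factor of IL-6, IL-10 and IL-21 signals, had 10715, 10248, 3374, 4128 and 8344 counts in WT libraries 1 to 5. The KO libraries split, with 1026, 4, 1173, 821 and 5 counts in KO libraries 1 to 5. Scaled, KO library 1 lay above every WT library, KO libraries 3 and 4 within the WT range and KO libraries 2 and 5 below it. Mean levels were 184 ± 90.3 CPM for WT and 298 ± 513 CPM for KO; edgeR put the log2 fold change at 0.69 (SE 1.53, adjusted p = 0.792). The difference of mean log2(CPM + 1) had the opposite sign, −2.02 (exact permutation adjusted p = 0.480). The edgeR sign also turned without KO library 1, to −1.42 (edgeR adjusted p = 0.500), and by library size alone, to −1.79. At 200 to 500 CPM in WT by library size, the range of Stat3 and Jak2, 42.2% of 403 genes had more than 3 counts in every KO library.

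Stat4, the factor of IL-12 signals, had 3062, 4344, 2414, 2290 and 4004 counts across WT 1 to 5 and 0, 165, 852, 3249 and 85 across KO 1 to 5. KO libraries 3 and 4 lay above every WT library once scaled and the other 3 below, so the groups interleaved. Mean levels were 79.8 ± 18.7 and 128 ± 192 CPM; edgeR put the log2 fold change at 0.69 (SE 1.53, adjusted p = 0.793). Without KO library 4, with 74.7% of the KO counts, it was −0.75, and by library size alone −0.49. The difference of mean log2(CPM + 1) was −1.16 with all libraries (exact permutation adjusted p = 0.696).

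Jak1 (chromosome 4, 101152367 to 101265282, minus strand) is the kinase bound to the IL-7 receptor, the IL-2 receptor beta chain and the IL-4 receptor. It was the most abundant of the 4 kinases in counts in each of the 10 libraries. Its counts were 13910, 15720, 10001, 12772 and 17306 across WT 1 to 5 and 384, 24570, 5715, 8512 and 2681 across KO 1 to 5. In TMM-scaled CPM these were 398, 351, 300.4, 283 and 394 in WT and 452, 3686, 783, 1214 and 1175 in KO. Every KO library then lay above every WT library, which held for 0.774% of tested genes.

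The size and the call of Jak1 depended on the scaling and the test. Mean levels were 345 ± 52.8 CPM for WT and 1462 ± 1282 CPM for KO; edgeR put the log2 fold change at 2.08 (SE 0.987, adjusted p = 0.140), which missed the threshold. The exact permutation test gave p = 0.00794 (adjusted p = 0.0268), which passed. That p follows from every KO library lying above every WT library and adds nothing to it. It was shared by 2222 tested genes, 2164 lower and 58 higher, and the adjusted p depends on that number. DESeq2 called Jak1 higher (log2 fold change 2.71, adjusted p = 0.00379), as did edgeR without KO library 1 (2.37, adjusted p = 0.0200). By library size alone the levels were 591 ± 105 and 1010 ± 994 CPM, 3 KO libraries lay above every WT library and KO library 1 below (0.294% of tested genes had all 5 above), and the exact permutation test gave an adjusted p of 0.902. At over 500 CPM in WT, the range of Jak1, 5.65% of 177 genes were called higher with edgeR. Its place among all genes, ranked by counts within a library, was 107 to 178 in WT and 40 to 366 in KO.

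Jak2 (chromosome 19, 29251828 to 29313080, plus strand), the kinase of the IL-5, GM-CSF and TSLP receptors, had 9946, 12287, 5567, 5366 and 10184 counts in WT libraries 1 to 5. It had 2, 4323, 214, 5466 and 1963 counts in KO libraries 1 to 5. Scaled, KO libraries 2, 4 and 5 lay above every WT library and KO libraries 1 and 3 below. Mean levels were 215 ± 71.2 and 464 ± 416 CPM; edgeR put the log2 fold change at 1.11 (SE 1.32, adjusted p = 0.601), and it turned to −0.14 by library size alone. The difference of mean log2(CPM + 1) was −0.61 (exact permutation adjusted p = 0.839), opposite in sign on the same scaling.

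Jak3 (chromosome 8, 71676296 to 71690575, plus strand) works only with the common gamma chain of the IL-2, IL-7 and IL-9 receptors. Its counts were 2278, 1153, 436, 1661 and 1800 across WT 1 to 5 and 1, 5137, 1, 612 and 1 across KO 1 to 5. KO libraries 2 and 4 lay above every WT library once scaled and the other 3 were nearly empty. Mean levels were 36.4 ± 19.4 and 172 ± 337 CPM; edgeR put the log2 fold change at 2.24 (SE 1.86, adjusted p = 0.434). Without KO library 2, which held 89.3% of the KO counts, it was −0.72. The difference of mean log2(CPM + 1) was −1.47 with all libraries in (exact permutation adjusted p = 0.645), so the direction depends on the measure. Il2rg, the gene of the common gamma chain, was at 0 in every library; 100% of its exon bases lie inside the span of Gm20489, so it was not measured.

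**Figure D2:**
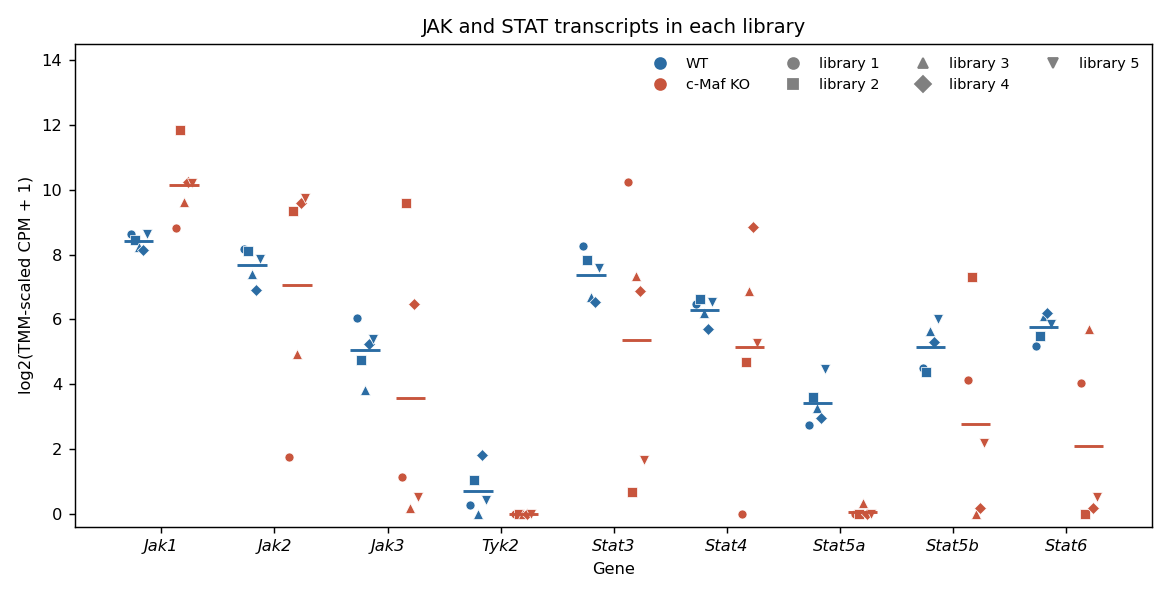
log2(TMM-scaled CPM + 1) of each member in each of the 10 libraries, with WT in blue, KO in red, a symbol per library number and a line at the group mean. At least 1 KO point lies above all WT points for 6 genes; for Jak1 all KO points lie above the WT points and for Stat5a all lie below.

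**Figure D3:**
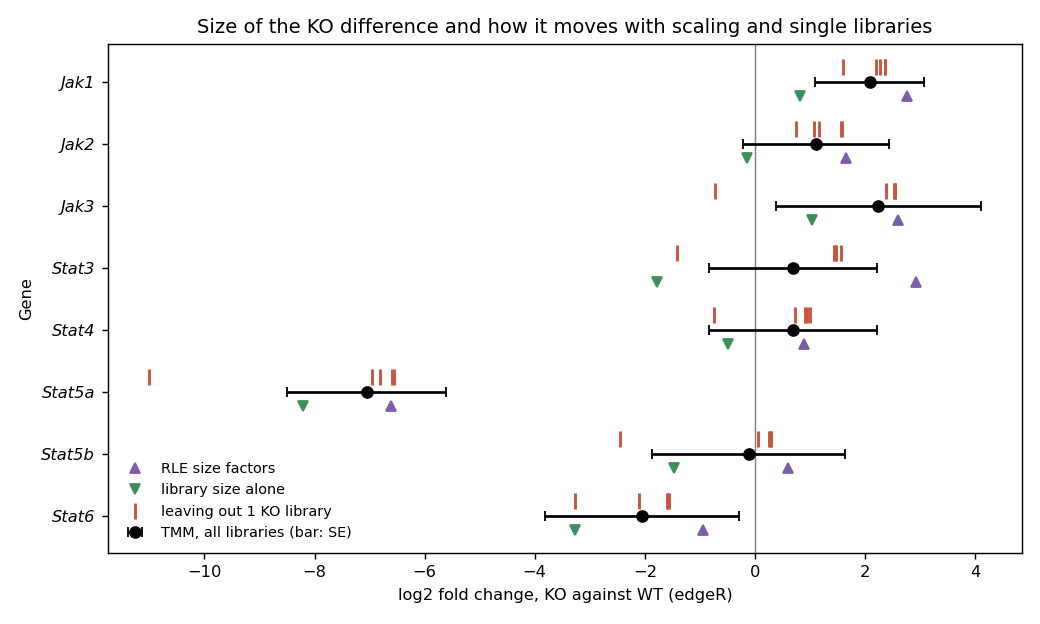
edgeR log2 fold change, KO against WT, of the 8 tested members (black, bar is the SE), with RLE size factors and library size alone (triangles) and with each KO library left out (red ticks). Stat5a stays on the left of 0 throughout, and Jak2, Stat3, Stat4 and Stat5b change side with the scaling.

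The members varied more between KO than between WT libraries, as did nearly all tested genes. Genes passed the filter mostly by their WT counts, and the KO libraries held fewer counts, so this may be in part built in. The median coefficient of variation was 40.5% in WT and 169% in KO over the 8 tested members, and 55.2 and 197% over all tested genes with counts in the group. The coefficient of variation of Jak1 was 15.3% in WT and 87.7% in KO, of Jak3 53.4 and 196%, of Stat3 49.1 and 173% and of Stat5b 48.0 and 193%. The highest KO library of Stat3 stood 2012 times above the lowest, against 3.36 times in WT, and by library size 489.6 and 2.82 times; the lowest KO value is 4 counts. Of the 45 pairs of a member and a KO library, 20 had at most 3 counts, and of the 40 pairs of tested members 15 did (37.5%), beside 64.05% over all tested genes. The tested members are stronger than most genes, with a median of 116 CPM in WT by library size against 27.9 over all tested genes. At most 3 counts in at least 1, 2, 3, 4 and 5 KO libraries were found for 6, 4, 3, 1 and 1 of the 8 tested members, against 92.9, 82.9, 70.9, 51.2 and 22.3% of all tested genes. Jak1 and Stat3 had more than 3 counts in every KO library, as did 7.06% of all tested genes.

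Each KO library held a different part of the family. More than 3 counts were found for 4 members in KO library 1, 6 in KO library 2 and 5 in each of the other 3, against 8 or 9 in the WT libraries. Over all tested genes the share with more than 3 counts was 18.0, 36.4, 45.4, 44.9 and 34.95% in KO libraries 1 to 5 and 96.5 to 99.3% in WT. Tested genes had passed the filter on counts, mostly through the deeper WT libraries, so the high WT share was nearly fixed in advance. Stat3 led the STAT counts in all 5 WT libraries, with 33.9 to 67.1% of them. In KO it led in libraries 1 and 3, with 97.4 and 48.9%, while Stat5b led in library 2 with 86.1% and Stat4 in libraries 4 and 5 with 79.8 and 85.9%. The counts are not set per length here, so the shares compare libraries and not genes.

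The balance of the kinases and the factors, which needs no scaling, was narrow in WT. Summed JAK counts over summed STAT counts were 1.64, 1.63, 1.61, 1.69 and 1.58 in WT libraries 1 to 5, while single genes such as Stat3 differed by 3.36 times between these libraries. In KO libraries 1 to 5 the ratio was 0.368, 28.1, 2.47, 3.58 and 46.9, all outside the WT range, with 1 KO library below and 4 above. The KO library with the highest ratio held 99 STAT counts. The count ratio of Jak1 to Jak2 was 1.28 to 2.38 in WT and 192, 5.68, 26.7, 1.56 and 1.37 in KO libraries 1 to 5, so libraries 4 and 5 lay within the WT range. These ratios were chosen after their values were seen and are given without a test.

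**Figure D4:**
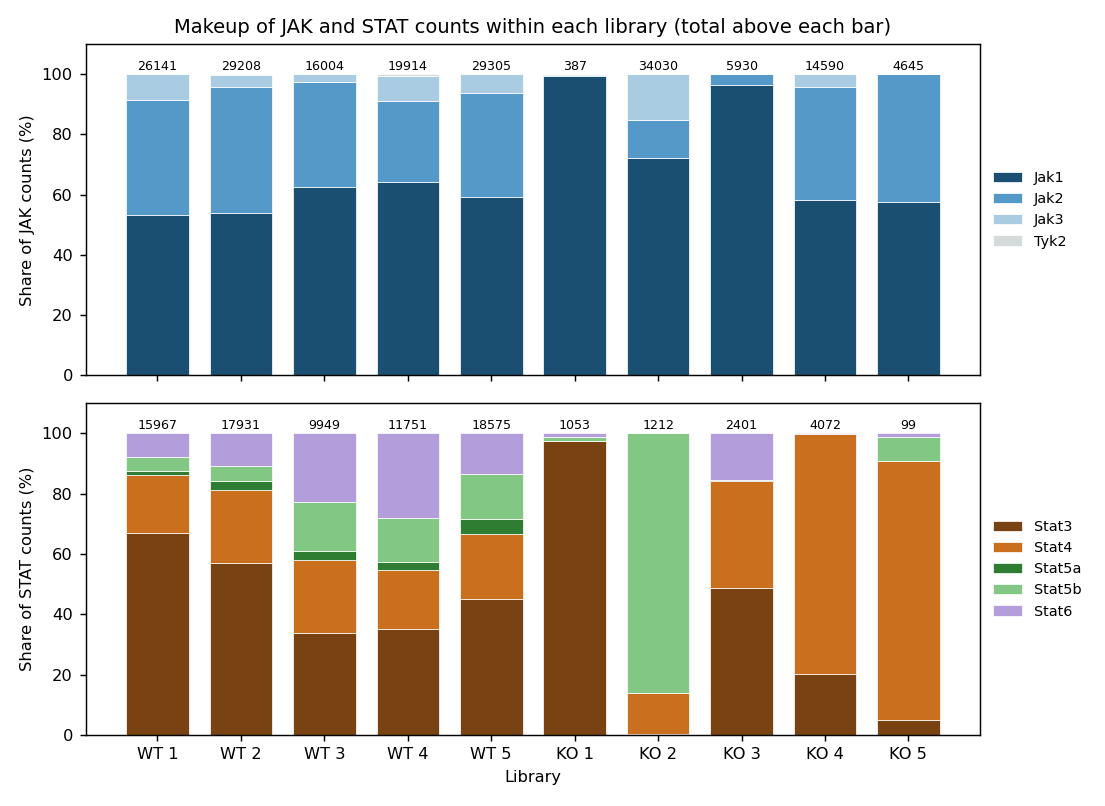
Percentage of the JAK counts (top) and of the STAT counts (bottom) that each member took in each library, with the total count above each bar. All 5 STAT factors are seen in each WT bar, with Stat3 at 33.9 to 67.1%, while the leading factor takes 48.9 to 97.4% of the KO bars and is Stat3, Stat5b, Stat3, Stat4 and Stat4 in KO libraries 1 to 5.

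Among 7217 other protein-coding genes tested, those whose profile over the 10 libraries was most like that of Jak1 were Rb1, Eef2 and Hspa8. Rb1 encodes the retinoblastoma cell cycle brake, Eef2 a translation elongation factor and Hspa8 a chaperone. Their root mean square differences from Jak1 were 0.46, 0.56 and 0.64 on the centred log2(CPM + 1) scale. Rb1 averaged 138 ± 12.4 CPM across WT and 748 ± 887 CPM across KO (edgeR adjusted p = 0.135). Of the other tested members Jak2 was nearest to Jak1, at 2.14, and Stat3 farthest, at 3.71.

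The rest of the pathway was read from lists of receptors, regulators and targets. Of 22 receptor chains that signal through JAKs 16 were tested; 2 fell, 0 rose and 14 did not pass, beside 27.1% lower and 1.5% higher over all tested genes, with a median log2 fold change of 0.74. Il12rb1, a chain of the IL-12 and IL-23 receptors, had 264 to 605 counts in the WT libraries and 0 in KO, at least 76.7-fold lower when the KO group as a whole is given 3 counts (edgeR adjusted p = 0.00163). Il10rb had 51 to 171 counts in WT and 0 in KO, at least 22.5-fold lower (edgeR adjusted p = 0.00163), but 48.1% of its exon bases lie inside the span of Gm21970. Il6st, the shared chain of IL-6 type receptors, had 4 to 293 counts in WT, 3205 in KO library 4 and 0 in the other KO libraries (edgeR adjusted p = 0.152). Ifnar2, a chain of the type I interferon receptor, stood at 13.1 ± 8.90 and 168 ± 239 CPM (edgeR adjusted p = 0.206). DESeq2 called it higher (log2 fold change 4.11, adjusted p = 0.0367). The span of Gm21970 also covers 73.6% of the Ifnar2 exon bases, so its counts and this call are uncertain. Nearly all its KO counts came from KO libraries 4 and 5, with 3599 and 741, beside 0, 1 and 13 for KO 1 to 3. The count of receptors that fell was 4 to 7 of 18 when 1 KO library was left out, beside 33.7 to 37.9% of all tested genes. It was 7 without KO library 4, where 37.8% of all tested genes were lower. It was 5 of 21 with no filter on low counts (15.9% of all genes) and 4 of 16 with voom (37.6%). DESeq2 called 4 of 18 lower (23.3% of all genes) and 1 higher. With a minimum of 50 counts or thinned libraries the count was 1 of 14, beside 19.9 and 21.3%.

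Of 22 regulators 19 were tested; 1 fell, 0 rose and 18 did not pass, under the 27.1% called lower over all tested genes, with a median log2 fold change of 0.09. Stam, an adaptor that binds JAKs and sorts receptors in endosomes, had 57 to 716 counts in WT and 0 in KO, at least 84.4-fold lower (edgeR adjusted p = 0.00163). Among the others, Socs4, of the feedback inhibitor family, stood at 10.9 ± 2.38 and 0.942 ± 2.02 CPM (edgeR adjusted p = 0.0856). Ptpn2, a phosphatase that acts on JAK1 and JAK3, averaged 55.3 ± 29.8 CPM across WT and 3.67 ± 5.88 across KO (edgeR adjusted p = 0.105), and Socs5 6.99 ± 3.53 and 134 ± 264 CPM (edgeR adjusted p = 0.175). The count of regulators that fell was 2 or 3 when 1 KO library was left out, beside 33.7 to 37.9% of all tested genes. It was 3 by library size alone (31.1% of all tested genes) and 8 with voom, which called 37.6% of all tested genes lower. With a minimum of 50 counts it was 0, beside 19.9%. DESeq2 called 1 lower and 2 higher, beside 23.3 and 13.5% of all genes it tested.

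All 13 genes listed as STAT targets were tested; 2 fell, 0 rose and 11 did not pass, again under 27.1%, with a median log2 fold change of 0.49. Pim2, a survival kinase induced by STAT5, had 2046 counts in WT and 2 in KO, a ratio of 122 (exact 95% interval 33.7 to 1009, edgeR adjusted p = 0.00172). Bcl6, a repressor regulated by STAT3 and STAT5, had 482 to 1537 counts in WT and 0, 4, 23, 2 and 0 in KO libraries 1 to 5 (log2 fold change −4.81, SE 1.52, edgeR adjusted p = 0.0225). Bcl2l1, a survival factor, averaged 32.4 ± 15.1 CPM across WT and 4.64 ± 9.90 across KO (edgeR adjusted p = 0.292), and Il13 869 ± 232 and 193 ± 209 CPM (edgeR adjusted p = 0.241). The count of targets called lower was 6 with voom and 3 by library size alone, where 37.6 and 31.1% of all tested genes were. It was 3 without KO library 1, 3 or 5, where 33.7, 37.9 and 36.6% of all tested genes were. DESeq2 called 2 lower and 1 higher, beside 23.3 and 13.5% of all genes it tested.

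Stat2 and Irf9, which act together in the response to type I interferon, did not pass. Counts of Stat2 were 208 to 1083 across WT, 984 for KO library 2 and 0 to 4 for the rest of KO. Leaving out KO library 2 gave a log2 fold change of −5.79 (edgeR adjusted p = 0.00813, against 0.671 with it). Counts of Irf9 were 0, 374, 66, 1002 and 236 across WT 1 to 5, 377 for KO library 4 and 0 or 1 for the rest of KO. Leaving out KO library 4 gave −6.32 (edgeR adjusted p = 0.0291, against 0.875 with it). These fits called 35.5 and 37.8% of all tested genes lower. The dropped libraries held 99.6 and 99.7% of the KO counts of Stat2 and Irf9. A fall was thus nearly fixed in advance, and no conclusion is drawn from it.

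The windows upstream of the members were searched on both strands for a half-site of the MAF recognition element, TGCTGA. They were also searched for 1 form of STAT element, the GAS element TTCNNNGAA. All 9 members had an entry in the RefSeq promoter table of GRCm38.p6, with 12 windows of 250 bases before a start. The MAF half-site was in 1 of the 12, a Stat3 window, beside 16.1% of 32851 windows, and the GAS element in 0 of the 12, beside 7.02%. The Stat3 window, at chr11:100939541-100939790 on the minus strand, and the part outside exons of a window of Stat5a, at chr11:100860234-100860344 on the plus strand, are printed because Stat3 held the match and Stat5a is the member that fell; capitals mark the match, TCAGCA, which is TGCTGA on the other strand.
Stat3: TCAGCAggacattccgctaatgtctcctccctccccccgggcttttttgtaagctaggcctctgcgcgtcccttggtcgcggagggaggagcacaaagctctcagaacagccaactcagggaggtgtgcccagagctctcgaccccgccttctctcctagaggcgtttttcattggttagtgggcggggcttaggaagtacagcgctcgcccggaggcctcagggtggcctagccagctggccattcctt
Stat5a: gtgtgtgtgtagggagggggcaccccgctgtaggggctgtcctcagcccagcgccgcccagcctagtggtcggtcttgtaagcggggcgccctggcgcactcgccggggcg
A match is a description of these letters and not a bound site.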

How the data were processed

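The authors deposited 1 table of read counts, whole numbers per gene and library, without normalization. STAR 2.6.0c, SAMtools 1.8, HTSeq 0.9.1 and build GRCm38 are named in the submitters' processing notes; the kit for total RNA keeps strand, per the labels' protocols. The sources used here do not state the annotation release, strand setting or filters. Of the 54838 identifiers, 54809 matched GENCODE M21 (GRCm38), which gave positions, lengths and overlaps.

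Groups came from the genotype label. edgeR 4.0.16 (R 4.3.3) tested KO against WT on the whole table: filterByExpr with a minimum of 10 counts, TMM scaling, quasi-likelihood test, Benjamini-Hochberg over 7490 genes, threshold 0.05. The SE is the log2 fold change divided by the square root of F. Levels are TMM-scaled CPM, mean ± SD of 5 libraries. Exact permutation tests used all 252 regroupings of log2(CPM + 1) for every tested gene, adjusted over all of them. A gene with at most 3 counts in a library was called nearly missing. Alternatives were RLE factors, library size alone, TMM without globin and mitochondrial genes, DESeq2 1.42.0, voom with quality weights (limma 3.58.1), a robust fit, other filters, thinning to the smallest total, and leaving out each library. Lengths outside other genes, non-overlap and ranges by library size, and gaps on the log scale were added after seeing the data. The procedure was tested on simulated data. Without molecular identifiers, reads are not independent molecules: intervals, floors and bounds cover counting error alone.

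Members and lists were chosen with earlier results of these data known. Named genes are all members, Maf, up to 4 genes by smallest p per list, Stat2, Irf9 and the 3 nearest profiles to the strongest member; Il2rg was added after its values were seen. Some genes the rule names are not reported here.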

Additional observations from a re-analysis of the deposited data

Results flagged for a closer look

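In 6 of the 17 groups of 5 libraries checked, 1 library stood apart, with a gap to the nearest other library over 0.71 of the range of the group; all 6 were KO groups and 0 were WT groups. For normally distributed values chance gives this in about 1 of 20 groups; the gaps here are on unlogged CPM, for which that rate may not hold. In the KO groups on log2(CPM + 1) the gap passed 0.71 only for Stat5a, and was 0.53 for Jak1. KO library 2 was high for Jak1 (gap 0.764 of the range), Jak3 (0.887) and Stat5b (0.895). KO library 1 was high for Stat3 (0.867), KO library 4 for Stat4 (0.748) and KO library 3 for Stat5a (1), where it alone held counts, 2 in number.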

How the results depend on the processing

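No paired analysis was possible because the library numbers pair no WT with a KO library. Stat5a was called lower in all 19 alternatives; its log2 fold change ran from −11.00 to −6.56 with single libraries left out. Leaving out single libraries gave 1734 to 3350 genes lower and 82 to 333 higher over all genes (2027 and 112 with all libraries; 3021 to 3350 lower without 1 KO library), 1.59 to 2.37 for Jak1 (2.37 and called without KO library 1), 0.75 to 1.58 for Jak2, −0.72 to 2.57 for Jak3, −1.42 to 1.56 for Stat3, −0.75 to 1.01 for Stat4, −2.46 to 0.29 for Stat5b and −3.27 to −1.56 for Stat6. With a minimum of 50 counts 1173 genes were lower and 50 higher, and thinned to the smallest total 1272 and 52, with fewer genes tested. Genes higher were 193 with RLE, 49 by library size alone, 1512 with DESeq2 (2611 lower) and 2345 with no filter (3024 lower), so the lower share of calls fell from 94.8% to 63.3% and 56.3%.

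Scaling moved the median tested gene by 0.45 with RLE, −1.23 by library size alone and −2.01 with voom. By library size alone the log2 fold changes reversed to −0.14 for Jak2, −1.79 for Stat3 and −0.49 for Stat4. With voom they were −0.54 for Jak2, −2.58 for Jak3, −2.12 for Stat3 −1.66 for Stat4 and −3.84 for Stat5b, and Stat6 was called at −5.08. Stat5b turned to 0.60 with RLE and 0.55 with DESeq2, which called Jak1 at 2.71. In the exact permutation test on CPM by library size, the log2 differences were 0.090 for Jak1, no longer called, and −4.96 for Stat6, then called. On that scale, added after seeing the data, 2 members had every KO library below every WT library and 0 above, against 1 and 1 with TMM. At exactly 0 counts 12 of the pairs of a member and a KO library were missing, and at most 10 counts 23, against 20. The causes were not tested. Depth limits what KO libraries can show: by library size, 3 counts are 0.829 CPM in the smallest library and 0.304 in the largest KO library. TMM-scaled, as member levels are, 3 counts are 1.31 and 0.428 CPM in these libraries and 3.53 CPM in KO library 1. The lowest WT level of Stat5a was 5.76 CPM on that scale.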

Other observations

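The WT libraries also differed among themselves in the STAT factors. WT libraries 1 and 2 held Stat3 at 307 and 229 CPM and Stat5b at 21.8 and 19.6 CPM (TMM-scaled). WT libraries 3 and 4 held Stat3 at 101.3 and 91.3 CPM and Stat5b at 48.6 and 38.1 CPM. WT library 5 held Stat3 at 189.9 CPM and Stat5b at 63.3 CPM. Stat6 stood at 35.1, 43.8, 67.9, 73.1 and 57.1 CPM in WT libraries 1 to 5. The ratio of Stat3 to Stat4 counts was 3.499, 2.36, 1.398, 1.803 and 2.08 in WT libraries 1 to 5. These libraries were set side by side after their values were seen, and no test was made.

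Stat5b, Stat5a and Stat3 lie within 158810 bases of chromosome 11, and Stat5a and Stat3 overlap by 72 bases at their ends. KO library 1 held 14, 0 and 1026 counts of Stat5b, Stat5a and Stat3, KO library 2 held 1043, 0 and 4, KO library 3 held 0, 2 and 1173, KO library 4 held 1, 0 and 821, and KO library 5 held 8, 0 and 5. Stat5b and Stat3 were both above 3 counts in KO libraries 1, 2 and 5. In WT all 3 were found in every library.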
